A study of Mus musculus with 48 samples.

Results

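Cisplatin, a platinum compound, forms adducts on single strands of DNA and can also join the strands to each other. The 37 genes described here encode proteins that recognise, cut out or bypass such lesions. Their products are the Fanconi anemia proteins with the nucleases, recombination proteins, translesion polymerases, adduct recognition proteins and kinases that act with them. The genes were picked by name from the pathway, not by their values, and make up 37 of the 55487 genes in each of the 2 counts tables. The RNA is from wild type mice, whose nodes were digested and sorted for 4 cell types: the sinus macrophages of the medulla (MSM) and of the subcapsular sinus (SSM), and dendritic cells that are migratory (mDC) or resident (rDC). For every type there are nodes labelled LN and tumor-draining ones (TDLN), after cisplatin or PBS, which gives 16 groups of 3 libraries. All 48 libraries were polyA RNA made with a stranded kit. The labels give no dose, time, age or sorting gate, and do not say what tissue the LN drained or whether LN donors carried a tumor. They do not name separate animals for the 3 libraries of a group either, so the p-values may measure technical spread only.

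When a replication fork meets an interstrand crosslink, the Fanconi core complex, a ubiquitin ligase built around Fancl and served by the E2 enzyme Ube2t, attaches ubiquitin to Fancd2 and Fanci, and the deubiquitinase Usp1 removes it again. The marked pair brings in nucleases that unhook the crosslink, translesion polymerases fill the gap, and homologous recombination restores the broken strand. Xpc and Xpa act outside replication in nucleotide excision repair, which removes platinum joined to 1 strand, and many genes of the pathway are more highly expressed in dividing cells.

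Macrophage libraries held 6.46 to 10.43 M counts. Among dendritic cells the 6 libraries of mDC TDLN PBS and of rDC LN PBS held 10.73 to 15.48 M and the other 18 libraries 2.00 to 3.84 M, so each dendritic comparison with either deep group sets deep against shallow libraries. Levels are CPM, counts scaled to a common library total, with TMM scaling within the 12 libraries of a cell type, unless a scale over all 24 libraries of a table is named, and a member is called where edgeR's quasi-likelihood test gave a Benjamini-Hochberg adjusted p under 0.05 over all genes tested. Fold changes are log2 ± standard error. In 4 macrophage libraries the RNA resembled the other label, and they are called crossed here: replicate 2 of both MSM and SSM in LN PBS, and in TDLN cisplatin replicate 1 of MSM and replicate 3 of SSM. Against sampling noise of 0.455, the median chi-square per gene was 16.2 to 23.2 between a crossed library and the others of its group and 0.769 to 1.25 between it and those of the other label. The 10 macrophage markers summed to 327 to 356 CPM in the libraries labelled MSM LN cisplatin and to 7575 to 7612 CPM in SSM LN cisplatin. In MSM LN cisplatin the 9 dendritic markers summed to 4289.9 to 4535 CPM, with 1 of them at 0, and the 5 B cell markers to 3648 to 3743 CPM. In mDC the dendritic markers summed to at least 18707 CPM and in rDC to at most 4838 CPM, beside B cell markers of at most 310.3 CPM in mDC and 1386 to 3021 CPM in rDC. In bulk libraries fewer cells of a type and less RNA per cell cannot be told apart.

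Within each dendritic type few of the pathway's genes were called. The 95% intervals of those not called were wide in places, within -1.62 to 1.53 on the log2 scale for cisplatin in mDC of the LN. Between the types 62.2% of the pathway's genes were called, below the share of all genes. Averaged over the 4 conditions, 13 of 37 members were higher and 10 lower in mDC than in rDC, where 74.4% of all 14548 genes tested were called (35.6% higher, 38.9% lower). The members' median log2 fold change was 0.04, against -0.06 over all genes. Scaled within each type, the 24 proliferation genes summed to 512 to 679.5 CPM in mDC and 734 to 977 CPM in rDC. The 10 p53 target genes summed to 1488 to 2105 CPM and 471 to 558 CPM in the same order. Their part in the calls was not tested. In the core complex and its E2, 3 members were higher, 3 lower and 3 not called, and among recombination genes 4 were higher, 2 lower and 5 not called. Of the substrate pair and Usp1, Fancd2 alone was called. For the nucleases the count was 2 higher, 2 lower and 2 not called, for translesion synthesis 1, 1 and 2, and each of the adduct recognition and kinase pairs had 1 member in each direction. The 14 members not called lay between -0.29 and 0.27.

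**Figure D1:**
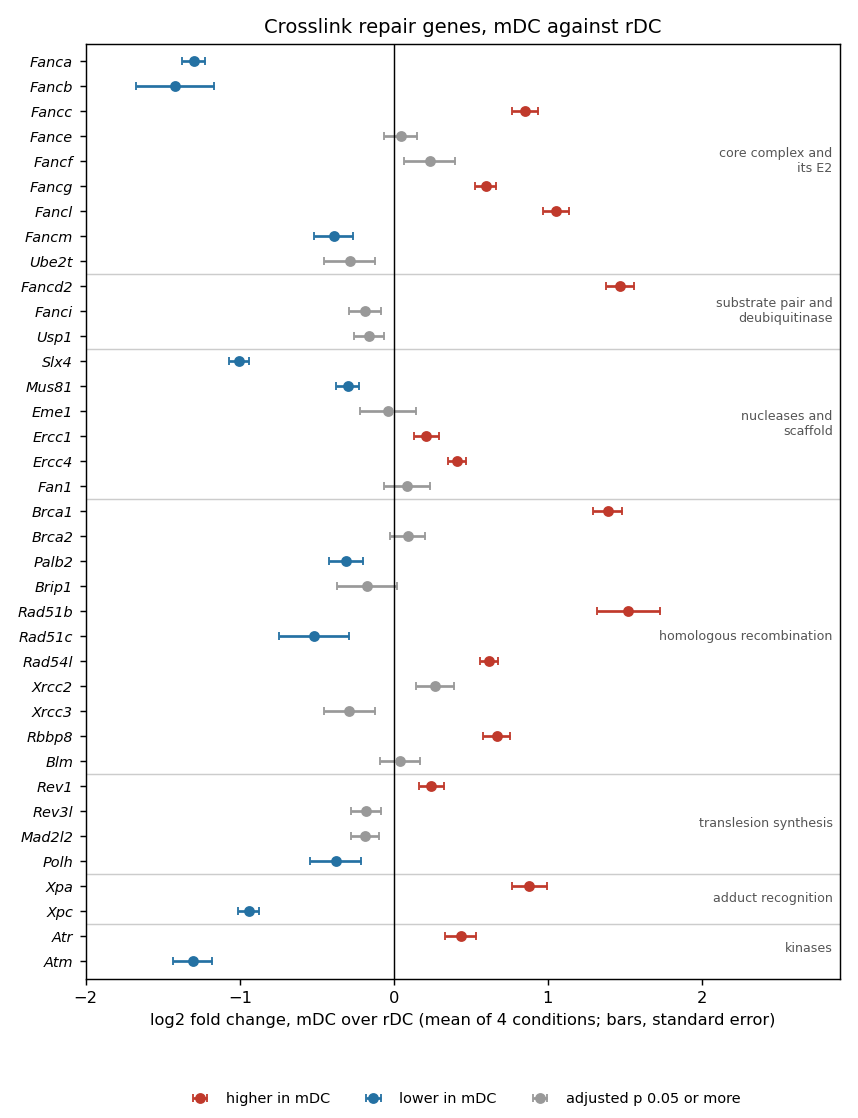
Log2 fold change ± standard error of mDC over rDC, averaged over the 4 conditions (n = 12 libraries per type), for all 37 members grouped by role. Red members were called higher and blue ones lower in mDC, grey ones were not called. Rad51b, Fancd2 and Brca1 lie farthest to the right, at 1.52, 1.47 and 1.39, and Fancb, Atm and Fanca farthest to the left, at -1.42, -1.31 and -1.30.

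For 7 called members no mDC library overlapped any rDC library, and the share of all genes without overlap was not computed. On the scale over 24 libraries, Fancd2 (GRCm38 chromosome 6, 113531682 to 113597017, plus strand), the protein that the core complex marks with ubiquitin, had a lowest, median and highest level of 23.6, 34.8 and 42.5 CPM in mDC and of 8.11, 11.6 and 20.1 CPM in rDC. The mDC range began above the top of the rDC range (log2 fold change 1.47 ± 0.09, adjusted p = 7.09e-15). Fancc, a core complex subunit, spanned 21.9, 30.4 and 34.8 CPM in mDC and 13.1, 16.8 and 20 CPM in rDC, with a gap between the types that was narrow (log2 fold change 0.85 ± 0.08, adjusted p = 1.87e-10). Xpa, the scaffold of nucleotide excision repair, spanned 9.06, 13.2 and 18.5 CPM against 4.63, 7.22 and 8.27 CPM, again higher in every mDC library (log2 fold change 0.88 ± 0.11, adjusted p = 5.44e-08). Rbbp8, which starts the resection of DNA ends, spanned 32.8, 38.1 and 50 CPM against 15.7, 26 and 32.3 CPM and its ranges nearly met (log2 fold change 0.67 ± 0.09, adjusted p = 1.14e-07).

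In the other direction, Fanca, a core complex subunit, spanned 9.61, 14.6 and 19.2 CPM in mDC and 30.2, 35.4 and 42.3 CPM in rDC. Every mDC library was below every rDC library (log2 fold change -1.30 ± 0.07, adjusted p = 1.07e-15). Slx4, the scaffold that holds the unhooking nucleases, spanned 14.5, 18.3 and 22.6 CPM against 31.9, 35.9 and 43.5 CPM (log2 fold change -1.01 ± 0.07, adjusted p = 2.41e-14). Xpc, which finds the distorted helix in excision repair, spanned 18.5, 21 and 24.4 CPM against 30.1, 40.9 and 45.5 CPM (log2 fold change -0.94 ± 0.07, adjusted p = 1.45e-13). Thus 1 of the excision repair pair was higher and the other lower in mDC, each without overlap. The exons of Fanca share bases with Zfp276 (10.5% of Fanca's exon bases) and those of Xpa with Ncbp1 (4.07%), both on the opposite strand. Whether the counting used strand is not given in the sources used here. Zfp276 was at -0.12, adjusted p = 0.0513 and Ncbp1 at -0.46, adjusted p = 2.75e-08 in the same comparison.

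The other 16 calls came from ranges that overlapped. Brca1, the recombination protein that also acts at stalled forks, spanned 16.9, 27.1 and 38.8 CPM in mDC and 6.95, 9.46 and 17.3 CPM in rDC, with a small overlap (log2 fold change 1.39 ± 0.09, adjusted p = 7.86e-14). Rad51b, a recombination protein, spanned 3.2, 7.76 and 12.9 CPM against 1.18, 2.5 and 4.83 CPM (log2 fold change 1.52 ± 0.20, adjusted p = 9.98e-08). Atm, the kinase that responds to double strand breaks, spanned 1.36, 6.74 and 12.5 CPM against 8.75, 16.2 and 20.5 CPM and was lower in mDC (log2 fold change -1.31 ± 0.13, adjusted p = 2.62e-10), while Atr, the kinase of stalled forks, was higher (log2 0.43). Fancl (log2 1.05), Fancg (0.60), Rad54l (0.62), Ercc4 (0.41), Rev1 (0.24) and Ercc1 (0.21) were also higher in mDC. Fancb (log2 -1.42), Rad51c (-0.52), Fancm (-0.39), Polh (-0.38), Palb2 (-0.31) and Mus81 (-0.30) were lower. Of these, Polh was not called in 19 of 29 alternative fits, Rad51c in 17 and Ercc1 in 2, including fits that left out 1 library. Tested within each of the 4 conditions, Brca1, Ercc4, Fancc, Fancd2, Rad51b, Rad54l and Xpa were called higher in all 4, and Fanca, Slx4 and Xpc lower in all 4. Within a single condition 54.9% to 72.4% of all genes were called, and the share of all genes called in all 4 was not computed. The range of Fancd2 over the conditions was 1.35 to 1.75 and that of Fanca -1.73 to -0.92.

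Levels can be set between genes only per transcript length, for which the dendritic cells have the authors' TPM. In mDC the highest median TPM of the 37 were those of Ercc1 (48.5), the partner of the nuclease Ercc4, and of the nuclease Mus81 (36.6), followed by Fancg (29.9) and Fance (29.8). In rDC Fanca led with 66.9 TPM, before Ercc1 (56.9) and Mus81 (54.7). Fanca ranked 11 of 37 in mDC, at 19.8 TPM. Fancd2 ranked 15 in mDC (10.7 TPM) and 24 in rDC (5.66), and Brca1 17 (8.24) and 28 (4.40). The lowest medians were those of Fancb (0.555 TPM) and Brip1 (0.995) in mDC and of the same pair (1.82 each) in rDC.

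The next comparison asked what cisplatin changed in mDC of the TDLN. The core complex ligase Fancl, the substrate Fancd2, the helicase Blm and the kinase Atr fell, the nuclease subunit Mus81 rose, and no recombination gene other than Blm was called. That is 1 higher and 4 lower of 35 members tested, with 27.3% of 12519 genes called (14.1% higher, 13.2% lower), and a median log2 fold change of 0.07 against -0.01 over all genes. Fancb and Rad51c were too low to be tested in mDC. The 30 members not called lay between -0.36 and 0.57, with 95% intervals within -0.79 to 1.22.

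Promoters are shown for the called members that have a window in RefSeq's table (GRCm38.p6), since these moved in 1 comparison. Each run of 300 bases covers 250 bases before and 50 after the annotated start, 5′ to 3′ on the gene's strand, with matches to the searched motifs in capitals.
Fancl (chr11:26386834-26387133, plus strand): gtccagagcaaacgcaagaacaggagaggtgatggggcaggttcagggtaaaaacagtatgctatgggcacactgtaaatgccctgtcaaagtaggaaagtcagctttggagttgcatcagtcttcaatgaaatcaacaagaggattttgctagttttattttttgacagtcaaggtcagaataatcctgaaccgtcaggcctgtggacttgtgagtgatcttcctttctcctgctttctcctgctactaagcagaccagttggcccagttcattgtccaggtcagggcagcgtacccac
Atr (chr9:95857347-95857646, plus strand): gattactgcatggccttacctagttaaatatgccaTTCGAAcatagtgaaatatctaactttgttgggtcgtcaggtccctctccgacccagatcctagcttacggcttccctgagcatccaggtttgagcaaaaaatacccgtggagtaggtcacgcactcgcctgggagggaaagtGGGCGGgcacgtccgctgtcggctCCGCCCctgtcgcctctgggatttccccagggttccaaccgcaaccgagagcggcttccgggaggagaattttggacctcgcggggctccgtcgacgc
Blm (chr7:80534949-80535248, minus strand): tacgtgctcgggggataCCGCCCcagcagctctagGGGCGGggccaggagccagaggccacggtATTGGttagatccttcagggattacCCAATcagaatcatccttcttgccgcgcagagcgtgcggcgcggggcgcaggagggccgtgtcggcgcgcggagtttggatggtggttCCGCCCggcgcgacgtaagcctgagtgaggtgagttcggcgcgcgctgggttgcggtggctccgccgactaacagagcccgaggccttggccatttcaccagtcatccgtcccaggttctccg
Mus81 (chr19:5488330-5488629, minus strand): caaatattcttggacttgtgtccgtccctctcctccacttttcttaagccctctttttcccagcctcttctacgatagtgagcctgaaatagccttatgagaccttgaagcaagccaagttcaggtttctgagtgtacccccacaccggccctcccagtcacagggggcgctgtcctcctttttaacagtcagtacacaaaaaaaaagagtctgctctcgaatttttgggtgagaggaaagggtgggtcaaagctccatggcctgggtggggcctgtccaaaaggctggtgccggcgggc
On either strand, the capitals mark a cell cycle element (TTTGAA, or the form TTCGAA), the NFY box (CCAAT) and the SP1 box (GGGCGG). Atr has the second form of the cell cycle element and a pair of SP1 boxes, Blm a pair of NFY boxes and 3 SP1 boxes, and the Fancl and Mus81 windows no match. The Fancl window lies inside the gene as annotated by GENCODE, which starts at 26386135, so bases before that start were not searched. Of the 37 members 31 have a window, and Fancd2 has none. The cell cycle element stood in the windows of 3 members and in 19.2% of all 32851 windows, the NFY box in 19 members and 37.4%, and the SP1 box in 18 members and 35.7%. The E2F forms TTTGGCGC, TTTCGCGC, TTTCCCGC and TTTGCCGC stood in 3 members and 2.26%. No form contains another, and a match is a description of letters only.

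Fancl, the ligase subunit, was at 19.6, 20.6 and 24.1 CPM in the 3 mDC TDLN cisplatin libraries and at 35.2, 33.2 and 29 CPM with PBS. Fancl fell without overlap between the groups (log2 fold change -0.60 ± 0.13, adjusted p = 0.00152). Its exons share 13.7% of their bases with Vrk2, a kinase gene on the opposite strand that was more abundant and also fell (103 against 146 CPM, log2 -0.50, adjusted p = 5.37e-05). The part of Vrk2 reads in the Fancl counts was not tested. Atr was at 30.4, 27.8 and 29.3 CPM with cisplatin and at 41.4, 41.9 and 39.5 CPM with PBS. Atr was low in every cisplatin library, and each group was tight (log2 fold change -0.49 ± 0.11, adjusted p = 0.00273).

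Blm, the helicase that dissolves joined DNA strands, was at 8.1, 3.09 and 4.48 CPM with cisplatin and at 8.33, 11.1 and 10.8 CPM with PBS. Blm fell, although replicate 1 of the cisplatin group was close to the lowest PBS library (log2 fold change -0.95 ± 0.25, adjusted p = 0.00647). Fancd2 was at 28, 25.4 and 30.7 CPM against 35.7, 35.2 and 35.6 CPM, a small fall from a level that was nearly the same in the PBS libraries (log2 fold change -0.34 ± 0.12, adjusted p = 0.0309). Mus81 was at 30, 31.2 and 27.3 CPM against 24.4, 18.9 and 21.3 CPM and rose without overlap (log2 fold change 0.46 ± 0.15, adjusted p = 0.0246). Efemp2, which shares 4.85% of Mus81's exon bases on the opposite strand, was at -0.04, adjusted p = 0.933. In the same libraries the 24 proliferation genes summed to 644 to 679.5 CPM with cisplatin and 512 to 526 CPM with PBS, and the 10 p53 target genes to 1488 to 1515 CPM and 2001 to 2105 CPM. Their part in these calls was not tested.

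The calls of Fancl and Atr were kept in all 12 alternative fits. Blm was not called without replicate 2 of the TDLN cisplatin group (adjusted p = 0.0616), and Fancd2 was not called without replicate 1 or 2 of the TDLN cisplatin group or replicate 2 or 3 of the TDLN PBS group (adjusted p = 0.0524 to 0.139), or after thinning the deep libraries (-0.35, adjusted p = 0.0783). Mus81 was not called without replicate 1 or 2 of the TDLN cisplatin group or replicate 2 or 3 of the TDLN PBS group (adjusted p = 0.0605 to 0.116), or with no low-count filter (0.19, adjusted p = 0.339), or after thinning the deep libraries (0.47, adjusted p = 0.0504). The count of 5 called members fell to 3 without cisplatin replicate 1, PBS replicate 2 or PBS replicate 3, to 2 without cisplatin replicate 2 and to 3 (0 higher) with thinning, and was 9 (0 higher) with no low-count filter.

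In mDC of the LN, 1 of 35 members was called with cisplatin, where 11% of all genes were called (6.15% higher, 4.82% lower). Fancd2 was at 22.8, 28.4 and 21.4 CPM with cisplatin and at 35.3, 33 and 38.5 CPM with PBS. It fell as it did in the TDLN, with no overlap (log2 fold change -0.55 ± 0.14, adjusted p = 0.0102), and here both groups were shallow libraries. The other 34 members lay between -0.66 and 0.69, with a median over the 35 of -0.05 against -0.01 over all genes. Fancd2 was not called without replicate 1 of the LN cisplatin group or replicate 3 of the LN PBS group (adjusted p = 0.0607 to 0.0646), and without cisplatin replicate 2 there were 2 calls, both lower. The proliferation genes summed to 562 to 619.9 CPM with cisplatin and 514 to 528 CPM with PBS.

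**Figure D2:**
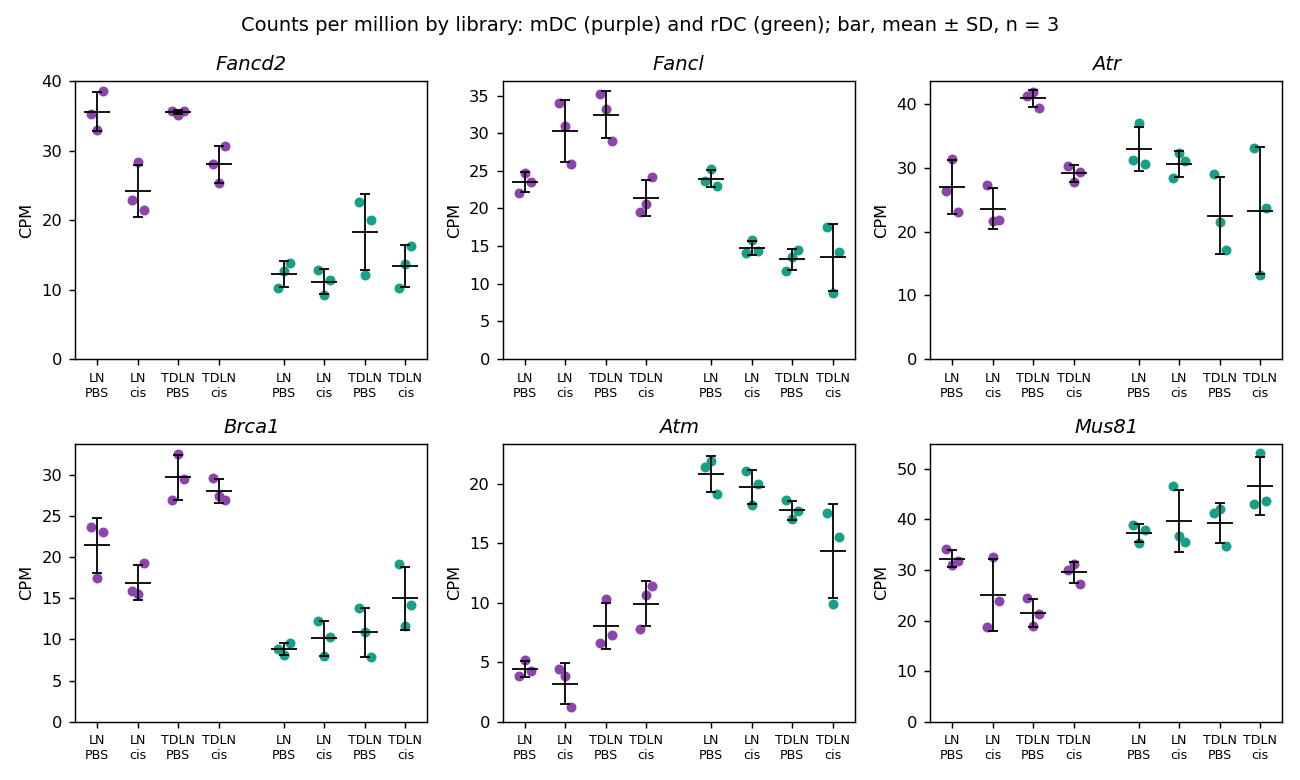
Level in CPM of Fancd2, Fancl, Atr, Brca1, Atm and Mus81 in each dendritic library, scaled within the 12 libraries of its cell type, with mDC in purple and rDC in green. Points are libraries and bars the mean ± SD (n = 3). Fancd2 is lower with cisplatin in both nodes of mDC, and Fancl is lower with cisplatin in mDC of the TDLN and in rDC of the LN.

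The effect of cisplatin on Fancl and Mus81 differed between the nodes of mDC, 1 lower and 1 higher of 35, with 15.6% of all genes called for a node difference (8.43% higher, 7.17% lower). In the LN, Fancl was at 34, 31 and 25.9 CPM with cisplatin and at 22.1, 24.8 and 23.6 CPM with PBS, so every cisplatin library was above the PBS libraries there, by a difference that was not called (adjusted p = 0.113), and below them in the TDLN (log2 difference TDLN minus LN -0.98 ± 0.20, adjusted p = 0.00177). Vrk2 differed in the same direction (log2 -0.68, adjusted p = 0.00037). Mus81 was at 18.7, 32.6 and 23.9 CPM with cisplatin and at 34.1, 30.9 and 31.7 CPM with PBS in the LN, where the groups overlapped, against its rise in the TDLN (log2 difference 0.84 ± 0.23, adjusted p = 0.0157). Mus81 was not called without replicate 1 of the LN cisplatin group (adjusted p = 0.0654), or with no low-count filter (0.52, adjusted p = 0.0966). No difference between nodes was called for Fancd2, Atr or Blm.

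In rDC of the TDLN, cisplatin called 0 of 37 members with edgeR's quasi-likelihood test, 2 at an unadjusted p under 0.05 and 0 with DESeq2, where 1.01% of 14023 genes were called. The members lay between -0.52 and 0.53, with 95% intervals within -1.26 to 1.46 and a median of 0.03 against 0.00 over all genes. Fancd2 was at 10.3, 13.7 and 16.2 CPM with cisplatin and at 22.6, 12.1 and 20 CPM with PBS, and the groups overlapped. Fancl was at 17.5, 8.77 and 14.2 CPM against 11.7, 13.6 and 14.4 CPM, with replicate 2 of the cisplatin group the lowest. That library differed from the others of its group by a median chi-square of 2.47 to 2.66, against 0.624 to 1.4 in other dendritic pairs.

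With cisplatin 1 member rose and 1 fell in rDC of the LN, where 17.9% of all genes were called (10.7% higher, 7.17% lower). Fancl was at 14, 15.9 and 14.4 CPM with cisplatin and at 23.7, 25.2 and 23 CPM with PBS, low in every cisplatin library (log2 fold change -0.70 ± 0.18, adjusted p = 0.0112). Vrk2 fell with it (40.4 against 62.6 CPM, log2 -0.63, adjusted p = 0.00733). Brca2, a mediator of homologous recombination, was at 11.6, 12.6 and 10.5 CPM with cisplatin and at 6.74, 7.37 and 7.07 CPM with PBS and rose without overlap (log2 fold change 0.71 ± 0.21, adjusted p = 0.0273). The 35 members not called lay between -0.44 and 0.42. Fancl was not called after thinning the deep libraries (-0.61, adjusted p = 0.066). Brca2 was not called without replicate 1, 2 or 3 of the LN cisplatin group or replicate 1, 2 or 3 of the LN PBS group (adjusted p = 0.0544 to 0.122), or with DESeq2 (0.60, adjusted p = 0.104), or with no low-count filter (0.41, adjusted p = 0.228), and leaving out any 1 of the 6 libraries left 1 call. The 3 T cell markers summed to 79.8 to 87 CPM with cisplatin and 7.18 to 14.6 CPM with PBS, and the proliferation genes to 734 to 777 CPM and 877 to 899 CPM, and their part in the calls was not tested. Between the nodes of rDC, edgeR called the cisplatin effect different for 0 of 37 members (2 at an unadjusted p under 0.05, 0 with DESeq2), where 5.31% of all genes were called (2.62% higher, 2.70% lower).

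**Figure D3:**
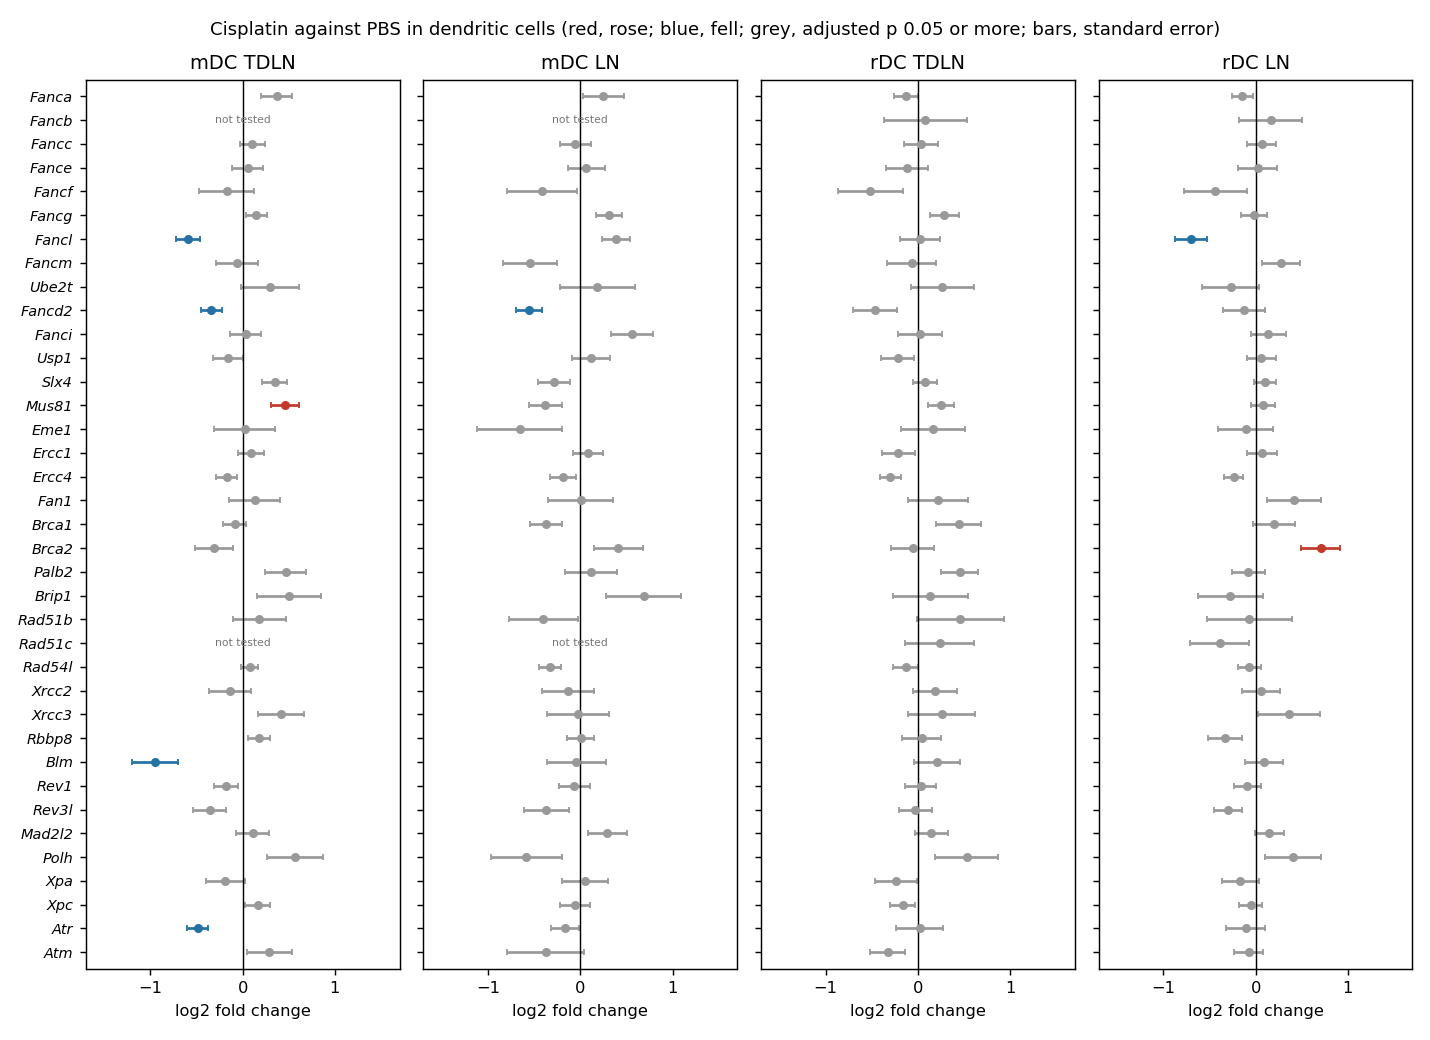
Log2 fold change ± standard error of cisplatin over PBS for the members in mDC and rDC of each node (n = 3 against 3 libraries), with called members in colour and members not called in grey. Fancb and Rad51c were not tested in mDC. The panel of mDC of the TDLN holds 5 called members, that of mDC of the LN 1, that of rDC of the TDLN 0 and that of rDC of the LN 2.

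TDLN and LN were then compared with the treatment held the same. In mDC with PBS 5 of 35 members were higher and 1 lower in the TDLN, where 29.1% of all genes were called (14.8% higher, 14.3% lower). The B cell markers summed to 179 to 192 CPM in the TDLN and 116 to 124 CPM in the LN, the proliferation genes to 512 to 526 CPM and 514 to 528 CPM, and their part was not tested. Both kinases were among them. Atr was at 41.4, 41.9 and 39.5 CPM in the TDLN and at 26.4, 31.5 and 23.1 CPM in the LN, without overlap (log2 fold change 0.61 ± 0.12, adjusted p = 0.000661). Atm was at 6.64, 10.3 and 7.27 CPM against 3.88, 5.16 and 4.28 CPM, a low gene that was higher in each TDLN library (log2 fold change 0.88 ± 0.31, adjusted p = 0.036). Fancl was higher (35.2, 33.2 and 29 CPM against 22.1, 24.8 and 23.6 CPM, log2 fold change 0.47 ± 0.14, adjusted p = 0.0118), as was Vrk2 (log2 0.36, adjusted p = 0.00184). Fanci, the partner of Fancd2, was at 11.7, 12 and 10.7 CPM against 8.53, 5.16 and 8.56 CPM and also higher (log2 fold change 0.60 ± 0.20, adjusted p = 0.0256). Mus81 was lower in the TDLN, at 24.4, 18.9 and 21.3 CPM against 34.1, 30.9 and 31.7 CPM (log2 fold change -0.59 ± 0.16, adjusted p = 0.00592). Brca1 was the sixth call (log2 fold change 0.46 ± 0.14, adjusted p = 0.0153). Fancl was not called without replicate 1 of the LN PBS group (adjusted p = 0.0645). Fanci was not called without replicate 2 of the LN PBS group or replicate 2 of the TDLN PBS group (adjusted p = 0.0556 to 0.124). Mus81 was not called with no low-count filter (-0.24, adjusted p = 0.218). Atm was not called without replicate 1 or 3 of the LN PBS group or replicate 2 of the TDLN PBS group (adjusted p = 0.1 to 0.141), or after thinning the deep libraries (0.48, adjusted p = 0.397). Brca1 was not called without replicate 2 of the LN PBS group or replicate 2 of the TDLN PBS group (adjusted p = 0.0596 to 0.0708), or after thinning the deep libraries (0.42, adjusted p = 0.0724). The count was 3 without TDLN PBS replicate 2, and 14, all higher, with no low-count filter, a setting that also moved the median of all genes by 0.35.

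With cisplatin, 4 of 35 members were higher and 1 lower in mDC of the TDLN than of the LN, where 14.8% of all genes were called (7.57% higher, 7.21% lower). The proliferation genes summed to 644 to 679.5 CPM in the TDLN and 562 to 619.9 CPM in the LN, and their part was not tested. Atm was at 7.76, 10.6 and 11.4 CPM in the TDLN and at 4.45, 3.87 and 1.23 CPM in the LN, the largest difference of the 5 (log2 fold change 1.55 ± 0.34, adjusted p = 0.00217). Brca1 was at 29.7, 27.5 and 26.9 CPM against 15.9, 15.5 and 19.3 CPM, higher in each TDLN library (log2 fold change 0.74 ± 0.16, adjusted p = 0.0016). Both calls were kept in all 12 alternative fits. Slx4 (20.2, 20.9 and 19.7 CPM against 14.2, 14.2 and 13.2 CPM, log2 fold change 0.54 ± 0.16, adjusted p = 0.0249) and Rad54l, a motor protein of recombination (59.7, 46 and 51.7 CPM against 41.5, 40 and 39.1 CPM, log2 fold change 0.38 ± 0.11, adjusted p = 0.0255), were higher too. Fancl was lower (19.6, 20.6 and 24.1 CPM against 34, 31 and 25.9 CPM, log2 fold change -0.52 ± 0.15, adjusted p = 0.0203), as was Vrk2 (log2 -0.33, adjusted p = 0.0121), the reverse of their order with PBS. Slx4 was not called without replicate 1, 2 or 3 of the LN cisplatin group or replicate 1 or 2 of the TDLN cisplatin group (adjusted p = 0.058 to 0.0775), or with no low-count filter (0.57, adjusted p = 0.0865). Rad54l was not called without replicate 1, 2 or 3 of the LN cisplatin group or replicate 1 or 3 of the TDLN cisplatin group (adjusted p = 0.0549 to 0.162). Fancl was not called without replicate 1 or 2 of the LN cisplatin group or replicate 1 or 2 of the TDLN cisplatin group (adjusted p = 0.0584 to 0.126), or with no low-count filter (-0.49, adjusted p = 0.0594). The count was 2 without LN cisplatin replicate 1 or 2 or TDLN cisplatin replicate 1, and 3 without LN cisplatin replicate 3 or TDLN cisplatin replicate 2.

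In rDC with PBS 2 of 37 members were higher and 3 lower in the TDLN, where 27.0% of all genes were called (14.9% higher, 12.1% lower). The T cell markers summed to 113 to 117 CPM in the TDLN and 7.18 to 14.6 CPM in the LN, and the B cell markers to 1547 to 1630.0 CPM and 2563 to 2921 CPM, and their part in the calls was not tested. Fancl was at 11.7, 13.6 and 14.4 CPM in the TDLN and at 23.7, 25.2 and 23 CPM in the LN, low in each TDLN library (log2 fold change -0.86 ± 0.18, adjusted p = 0.00241), and Vrk2 was lower with it (log2 -0.65, adjusted p = 0.0041). The translesion polymerase Rev1 was at 29.5, 23.1 and 24.9 CPM against 32.9, 42.9 and 34.9 CPM (log2 fold change -0.50 ± 0.15, adjusted p = 0.0213). Its exons share 26.6% of their bases with Eif5b on the opposite strand, which was lower as well (31.4 against 50.9 CPM, log2 -0.69, adjusted p = 0.000822). Rev3l, the catalytic subunit of polymerase zeta, was at 15.7, 12.5 and 18 CPM against 19.6, 22.8 and 22 CPM, without overlap (log2 fold change -0.47 ± 0.15, adjusted p = 0.0334). Brca2 was higher, at 9.84, 8.7 and 14.4 CPM against 6.74, 7.37 and 7.07 CPM (log2 fold change 0.64 ± 0.21, adjusted p = 0.0353), and Fancd2 was higher with overlapping groups (log2 fold change 0.60 ± 0.21, adjusted p = 0.042). Rev1 was not called without replicate 2 of the LN PBS group or replicate 2 or 3 of the TDLN PBS group (adjusted p = 0.069 to 0.098), or after thinning the deep libraries (-0.47, adjusted p = 0.0508). Rev3l was not called without replicate 2 or 3 of the LN PBS group or replicate 1 or 2 of the TDLN PBS group (adjusted p = 0.0808 to 0.124), or after thinning the deep libraries (-0.30, adjusted p = 0.25). Brca2 was not called without replicate 1, 2 or 3 of the LN PBS group or replicate 1 or 3 of the TDLN PBS group (adjusted p = 0.0566 to 0.252), or with DESeq2 (0.56, adjusted p = 0.14), or with no low-count filter (0.38, adjusted p = 0.325). Fancd2 was not called without replicate 1, 2 or 3 of the LN PBS group or replicate 1 or 3 of the TDLN PBS group (adjusted p = 0.0535 to 0.257), or with DESeq2 (0.51, adjusted p = 0.169), or with no low-count filter (0.34, adjusted p = 0.266), or after thinning the deep libraries (0.57, adjusted p = 0.104). The count of 5 was 1 to 3 without any of the 6 libraries.

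With cisplatin 1 of 37 members was lower in rDC of the TDLN, where 14.8% of all genes were called (7.83% higher, 6.97% lower). The B cell markers summed to 1386 to 1578 CPM in the TDLN and 2828 to 3021 CPM in the LN, and the T cell markers to 26.1 to 31.8 CPM and 79.8 to 87 CPM, and their part was not tested. Usp1 was at 38.4, 23.7 and 35.5 CPM in the TDLN and at 39.4, 48.6 and 53.2 CPM in the LN, where the groups nearly met and replicate 2 of the TDLN group was the lowest (log2 fold change -0.54 ± 0.18, adjusted p = 0.0477). Usp1 was not called without replicate 2 or 3 of the LN cisplatin group or replicate 2 or 3 of the TDLN cisplatin group (adjusted p = 0.0649 to 0.219), or with DESeq2 (-0.53, adjusted p = 0.0541), or with RLE size factors (-0.54, adjusted p = 0.052), or with the 6 compared libraries alone (-0.54, adjusted p = 0.126), or after thinning the deep libraries (-0.53, adjusted p = 0.0507). The count was 0 without LN cisplatin replicate 2 or 3 and 4, all lower, without TDLN cisplatin replicate 1. Over the 8 comparisons of treatment and node in dendritic cells 14 of 37 members were called at least once, where 58.7% of all genes were, Fancl in 5 of 8 and Fancd2 in 3.

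Macrophages gave more calls, between groups whose libraries also differed in their cell type markers. Over the same kind of comparisons 35 of 37 members were called at least once, all but Palb2 and Rbbp8, where 76.3% of all genes were. Palb2 was not tested in the 4 comparisons of MSM. In MSM, cisplatin in the TDLN raised 17 of 36 members and lowered 2, where 37.1% of 17002 genes were called (25.6% higher, 11.5% lower), and the members' median log2 fold change was 0.77 against 0.19 over all genes. Without the crossed libraries 22 rose and 5 fell, where 69.0% of all genes were called in that fit. The libraries of the PBS group held neutrophil markers of 7188 to 7443 CPM, T cell markers of 1452 to 1458 CPM and B cell markers of 25.7 to 30.4 CPM, and those of the cisplatin group neutrophil markers of 573 to 5251 CPM and mast cell markers of 1276 to 2109 CPM. The part of these cells in the calls was not tested.

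Several recombination genes had no count in the 3 MSM TDLN PBS libraries. Brip1, the helicase that binds Brca1, was at 3.44, 13 and 9.04 CPM with cisplatin and 0 in every PBS library. Against a floor of 3 counts per library it was at least 22.4-fold higher, adjusted p = 0.000351. The recombination gene Xrcc3 was at 4.46, 6.84 and 5.35 CPM against 0 (at least 14.6-fold higher, adjusted p = 5.03e-05). Rad51b was at 4.25, 5.16 and 4.2 CPM against 0 (at least 12-fold higher, adjusted p = 0.0362). Fancb, a core complex subunit, was at 0.608, 7.56 and 6.75 CPM against 0, with the crossed replicate 1 far below the other two (at least 13.1-fold higher, adjusted p = 0.00329). Polh, the polymerase that passes platinum adducts, was at least 7.13-fold higher, adjusted p = 0.0131. Brca1 was at 6.69, 13.8 and 16.7 CPM against 0, 0 and 0.405 CPM, Fancd2 at 1.72, 4.8 and 4.96 CPM against 0.119, 0.125 and 0.135 CPM and Atm at 7.6, 9.36 and 11.1 CPM against 0, 0.25 and 0 CPM, all 3 called higher from 1 to 3 counts with PBS, as was Fancf. Rad51b was not called without replicate 2 or 3 of the TDLN cisplatin group or replicate 1, 2 or 3 of the TDLN PBS group (adjusted p = 0.074 to 0.0914).

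Among members with more counts, the nuclease subunit Ercc1 was at 31.9, 31 and 36.5 CPM with cisplatin and at 8.48, 5.87 and 8.37 CPM with PBS, a rise without overlap (log2 fold change 2.13 ± 0.17, adjusted p = 1.52e-05). Atr was at 16.3, 33.1 and 22 CPM against 4.66, 3.37 and 4.86 CPM (log2 fold change 2.47 ± 0.44, adjusted p = 0.00183). Mus81 (log2 1.17), Slx4 (1.17, and 0.68 without the crossed libraries), Usp1 (1.07), Rad54l (1.02), Fanci (0.83) and Fancg (0.69) rose by less. Fancc fell, at 9.83, 6 and 6.11 CPM against 33.1, 27.1 and 28.2 CPM (log2 fold change -2.01 ± 0.43, adjusted p = 0.00494). So did Rev1, at 16.8, 21 and 18.8 CPM against 27.5, 31 and 29 CPM (log2 fold change -0.63 ± 0.17, adjusted p = 0.018), while Eif5b on its other strand was at 0.75, adjusted p = 0.0356. Rev1 was not called without replicate 3 of the TDLN cisplatin group (adjusted p = 0.0553), or with no low-count filter (-0.61, adjusted p = 0.0798).

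In MSM of the LN 13 of 36 members were higher and 10 lower with cisplatin, where 43.4% of all genes were called (16.6% higher, 26.8% lower), with a median of 0.21 against -0.15. Without the crossed libraries 16 were higher and 12 lower, where 74.0% of all genes were called. The libraries labelled MSM LN cisplatin are those with few macrophage markers and many dendritic and B cell markers, given above, against macrophage markers of 2374 to 13755 CPM with PBS, and the part of that makeup was not tested. Fanca was at 1.61, 1.49 and 1.75 CPM with cisplatin and at 42.8, 22 and 46.2 CPM with PBS (log2 fold change -4.50 ± 0.30, adjusted p = 5.62e-06). Zfp276, on its other strand, was lower too (log2 -0.60, adjusted p = 0.00782). Fancc was at 0.438, 0.374 and 0 CPM against 12, 17.6 and 12.5 CPM (log2 fold change -5.65 ± 0.58, adjusted p = 5.18e-05) and Brca2 at 0.292, 0.125 and 0.499 CPM against 3.35, 4.57 and 3.78 CPM (log2 fold change -3.61 ± 0.46, adjusted p = 0.000204). Fancb was at 0, 0.125 and 0 CPM against 7.19, 3.48 and 5.61 CPM, from 1 count with cisplatin. Thus these core complex subunits and Brca2 were low in each of the 3 cisplatin libraries. Brca1, at 0 in all 3 and at 3.1, 1.2 and 2.87 CPM with PBS, was at least 6.04-fold lower, adjusted p = 0.00425. Xpc (log2 -1.43), Mus81 (-0.69), Fancf, Rad51c and Eme1 were also lower.

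Higher in the same libraries were both the kinase Atr, at 55.1, 63 and 51.4 CPM with cisplatin against 4.71, 15.8 and 6.13 CPM with PBS (log2 fold change 2.66 ± 0.43, adjusted p = 0.000942), and Rev3l, at 57.6, 58.7 and 59.5 CPM against 5.95, 17 and 7.04 CPM (log2 fold change 2.55 ± 0.39, adjusted p = 0.000649). In both, the crossed PBS replicate 2 was the highest of its group. Fancd2 was at 8.04, 8.47 and 7.49 CPM against 0.372, 2.94 and 0.13 CPM, again with the crossed replicate highest (log2 fold change 2.76 ± 0.85, adjusted p = 0.0239, and 4.90 without the crossed libraries). Brip1 was at 7.16, 10.1 and 8.23 CPM against 1.98, 2.83 and 0.783 CPM (log2 fold change 2.17 ± 0.61, adjusted p = 0.0202). The rest were Xpa (log2 1.81), Fance (1.29), Ube2t (1.12), Slx4 (1.04), Fancg (0.82), Fancl (0.75), Fanci (0.66), Rad54l (0.61) and Usp1 (0.48). Fancd2 was not called without replicate 1, 2 or 3 of the LN cisplatin group or replicate 1 of the LN PBS group (adjusted p = 0.0576 to 0.0737), or with the 6 compared libraries alone (2.69, adjusted p = 0.0588). Brip1 was not called without replicate 2 or 3 of the LN cisplatin group or replicate 1 or 3 of the LN PBS group (adjusted p = 0.0536 to 0.0653). The count of 23 was 14 without cisplatin replicate 2, 13 without cisplatin replicate 3 and 15 without PBS replicate 1.

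**Figure D4:**
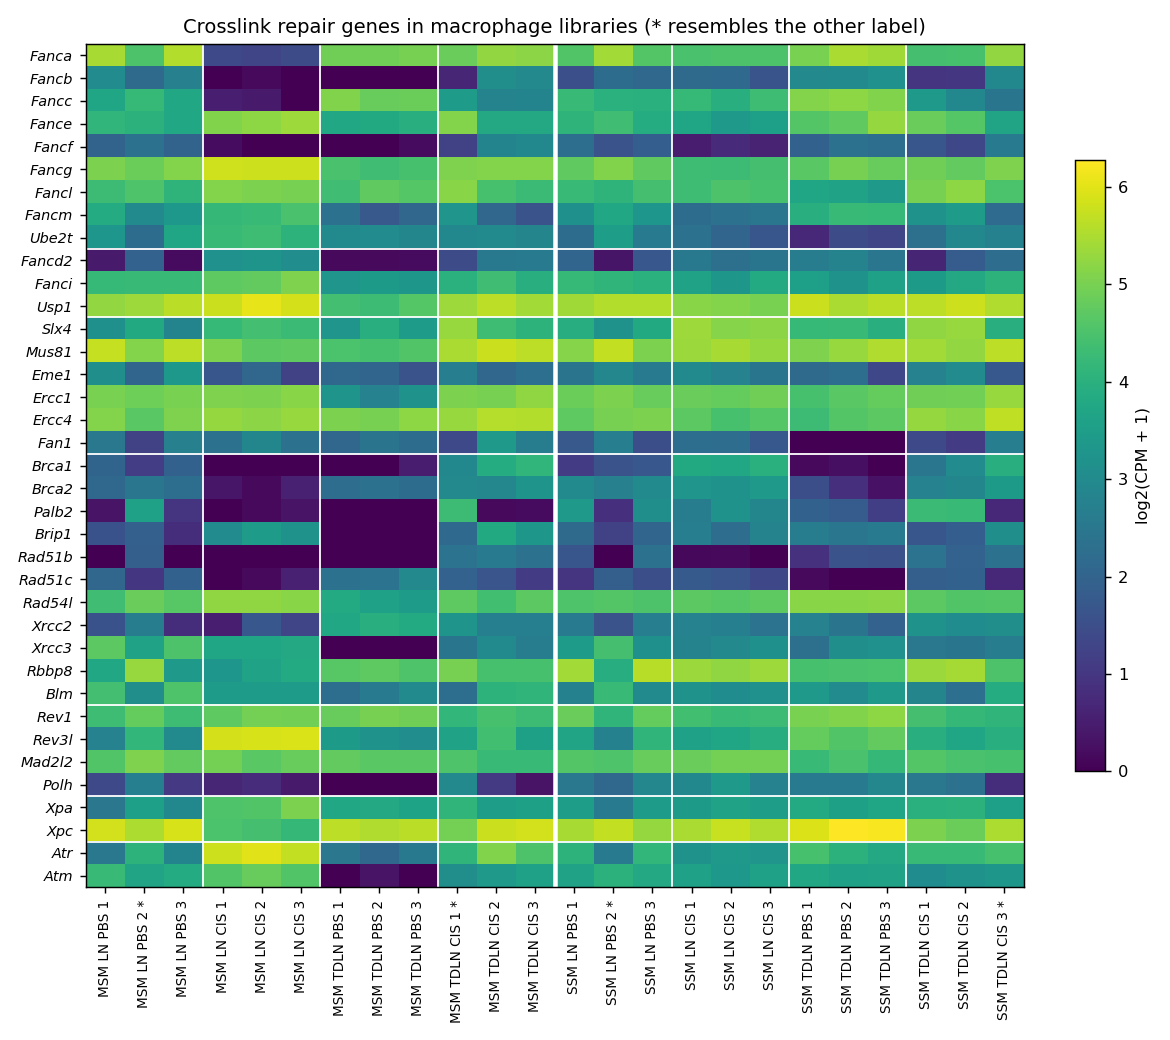
Level of the 37 members in the 24 macrophage libraries as log2(CPM + 1), libraries in columns by group and members in rows by role, with the 4 crossed libraries starred. The starred columns look like the columns of the other label at the same node and treatment, and the MSM LN cisplatin columns are low for Fanca, Fancc, Brca1 and Brca2.

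Between nodes, MSM with PBS had 1 of 36 members higher and 16 lower in the TDLN, where 38.2% of all genes were called (11.6% higher, 26.6% lower), and 7 higher and 18 lower without the crossed libraries, where 69.7% were called. The B cell markers summed to 25.7 to 30.4 CPM in the TDLN and 207 to 2896 CPM in the LN, the neutrophil markers to 7188 to 7443 CPM and 144 to 4299 CPM, and the proliferation genes to 467 to 493 CPM and 598 to 971 CPM, and their part in the calls was not tested. The members' median was -0.78 against -0.21 over all genes. Xrcc3 was 0 in the 3 TDLN libraries and at 25, 11.3 and 22.2 CPM in the LN (at least 51.4-fold lower, adjusted p = 1.55e-05). Fancb, also 0 in the TDLN, was at 7.19, 3.48 and 5.61 CPM in the LN (at least 14.3-fold lower, adjusted p = 0.00297). Atm was at 0, 0.25 and 0 CPM against 17.8, 11.6 and 13.6 CPM, called lower from 2 counts in the TDLN. Ercc1 was at 8.48, 5.87 and 8.37 CPM against 31.4, 28.7 and 31.4 CPM, low in each TDLN library (log2 fold change -2.01 ± 0.17, adjusted p = 2.08e-05). Xrcc2, a recombination gene and the 1 member higher, was at 12.3, 14.2 and 13.4 CPM against 1.98, 5.22 and 0.783 CPM (log2 fold change 2.31 ± 0.65, adjusted p = 0.0187, and 3.25 without the crossed libraries). Xrcc2 was not called without replicate 1 of the LN PBS group (adjusted p = 0.058). Fancd2 was lower with all libraries (log2 -3.06) but not called without the crossed ones (-0.92, adjusted p = 0.425).

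With cisplatin 11 of 36 members were higher and 13 lower in MSM of the TDLN, where 43.3% of all genes were called (26.7% higher, 16.6% lower), again against the LN libraries with few macrophage markers, and 14 higher and 16 lower without the crossed libraries, where 74.4% were called. The neutrophil markers summed to 573 to 5251 CPM in the TDLN and 13.9 to 16.7 CPM in the LN, and their part was not tested. Brca1 was at 6.69, 13.8 and 16.7 CPM in the TDLN and 0 in the LN (at least 31.3-fold higher, adjusted p = 0.00096), and Rad51b at 4.25, 5.16 and 4.2 CPM against 0 (at least 11.5-fold higher, adjusted p = 0.0324). Fancb was at 0.608, 7.56 and 6.75 CPM against 0, 0.125 and 0 CPM. Fancf, an adaptor in the core complex, was at 1.32, 6.12 and 6.62 CPM against 0.146, 0 and 0 CPM. Its exons share 15% of their bases with Gas2 on the opposite strand, at 7.34, adjusted p = 0.00181. Fancm, the translocase that anchors the core complex, was lower at 8.61, 3.24 and 2.04 CPM against 17.1, 17.8 and 21.2 CPM (log2 fold change -2.0 ± 0.49, adjusted p = 0.00843). Rev3l (11.2, 19.7 and 10.8 CPM against 57.6, 58.7 and 59.5 CPM, log2 fold change -2.07 ± 0.38, adjusted p = 0.00188), Ube2t (6.58, 7.08 and 6.24 CPM against 18.3, 19.1 and 15.7 CPM, log2 fold change -1.41 ± 0.36, adjusted p = 0.00983) and Atm (7.6, 9.36 and 11.1 CPM against 22.9, 27.1 and 22.8 CPM, log2 fold change -1.38 ± 0.40, adjusted p = 0.0192) were lower without overlap. Rad51b was not called without replicate 1, 2 or 3 of the LN cisplatin group or replicate 2 or 3 of the TDLN cisplatin group (adjusted p = 0.068 to 0.0819). Atm was not called without replicate 1, 2 or 3 of the LN cisplatin group or replicate 2 of the TDLN cisplatin group (adjusted p = 0.0542 to 0.0764). The count of 24 was 15 without LN cisplatin replicate 2 and 14 without LN cisplatin replicate 3.

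With all libraries kept SSM gave fewer calls than MSM in each comparison, but without the crossed libraries cisplatin in the TDLN gave 28 in SSM and 27 in MSM. In SSM of the TDLN cisplatin raised 7 of 37 members and lowered 5, where 23.0% of 16886 genes were called (13.0% higher, 9.95% lower), and 15 and 13 without the crossed libraries, where 71.1% were called. Leaving out the crossed cisplatin replicate 3 alone gave 10 and 9, where 49.0% were called. Fancc was at 9.55, 6.59 and 4.39 CPM with cisplatin and at 33.8, 35.9 and 32.9 CPM with PBS, low in each cisplatin library (log2 fold change -2.32 ± 0.26, adjusted p = 0.000496). Xpc was at 31.9, 28.3 and 44.5 CPM against 60.6, 76.8 and 73 CPM and Rev1 at 20.4, 17.2 and 16.2 CPM against 31.3, 33 and 36.1 CPM. Xpc (log2 fold change -1.01 ± 0.19, adjusted p = 0.00564) and Rev1 (log2 fold change -0.90 ± 0.20, adjusted p = 0.0114) fell without overlap. Fancm was at 8.4, 9.94 and 3.62 CPM against 14.3, 17.8 and 17.5 CPM (log2 fold change -1.18 ± 0.34, adjusted p = 0.0335). Rad54l was the fifth that fell (log2 -0.56). Rev1 was not called without replicate 3 of the TDLN PBS group (adjusted p = 0.0515). Fancm was not called without replicate 1 of the TDLN cisplatin group or replicate 1, 2 or 3 of the TDLN PBS group (adjusted p = 0.0679 to 0.107), or with no low-count filter (-1.15, adjusted p = 0.0656), or with the 6 compared libraries alone (-1.16, adjusted p = 0.0945).

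The recombination pair Brca1 and Brca2 rose there. Brca1 was at 4.49, 7.18 and 14.3 CPM with cisplatin and at 0.125, 0.203 and 0 CPM with PBS, a call from 3 counts with PBS. Brca2 was at 5.87, 6.4 and 9.65 CPM against 1.87, 0.811 and 0.245 CPM (log2 fold change 2.89 ± 0.52, adjusted p = 0.00472). Ube2t was at 4.03, 6.59 and 5.81 CPM against 0.623, 1.72 and 1.47 CPM (log2 fold change 2.09 ± 0.51, adjusted p = 0.017) and Fancl at 30.6, 36.3 and 21.6 CPM against 12.1, 11.4 and 9.3 CPM (log2 fold change 1.43 ± 0.21, adjusted p = 0.00182), so that the E3 and the E2 of the ligase were both higher. Vrk2 moved with Fancl (93.5 against 33.1 CPM, log2 1.5, adjusted p = 0.0086). The nuclease Fan1, 0 with PBS, was at least 7.91-fold higher, adjusted p = 0.00437, and Ercc4 (log2 0.87) and Rad51c were the other two. Ube2t was not called without replicate 2 of the TDLN cisplatin group or replicate 1 or 3 of the TDLN PBS group (adjusted p = 0.0536 to 0.063). The mast cell markers summed to 1305 to 1996 CPM with cisplatin and 4.87 to 8.6 CPM with PBS, and their part was not tested.

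Cisplatin raised 2 of 37 members and lowered 5 in SSM of the LN, where 13.3% of all genes were called (5.85% higher, 7.42% lower), and 4 and 8 without the crossed libraries, where 60.0% were called. Brca1 was at 13.1, 12.3 and 14.8 CPM with cisplatin and at 1.15, 2.03 and 2.28 CPM with PBS, high in each cisplatin library (log2 fold change 2.87 ± 0.53, adjusted p = 0.00766). Slx4 was at 39.8, 34.4 and 35.3 CPM against 14, 8.26 and 13.1 CPM (log2 fold change 1.62 ± 0.34, adjusted p = 0.0126). Lower were Fancg (19.1, 18.9 and 20.6 CPM against 25.9, 33.3 and 25.8 CPM, log2 fold change -0.53 ± 0.16, adjusted p = 0.0471), Fancm (3.69, 4.07 and 4.55 CPM against 7.83, 12.5 and 8.83 CPM, log2 fold change -1.24 ± 0.35, adjusted p = 0.0425) and Usp1 (34.7, 33.7 and 31.6 CPM against 41, 46.3 and 46.4 CPM, log2 fold change -0.42 ± 0.12, adjusted p = 0.0481). Fancf (log2 -2.35) and Rad51b were the other two that fell. Slx4 was not called without replicate 1 of the LN cisplatin group (adjusted p = 0.0506). Fancg was not called without replicate 1, 2 or 3 of the LN cisplatin group or replicate 1, 2 or 3 of the LN PBS group (adjusted p = 0.0786 to 0.174), or with no low-count filter (-0.49, adjusted p = 0.183), or with the 6 compared libraries alone (-0.59, adjusted p = 0.0528). Fancm was not called without replicate 1, 2 or 3 of the LN cisplatin group or replicate 1, 2 or 3 of the LN PBS group (adjusted p = 0.0679 to 0.152), or with no low-count filter (-1.20, adjusted p = 0.0891). Usp1 was not called without replicate 1, 2 or 3 of the LN cisplatin group or replicate 1, 2 or 3 of the LN PBS group (adjusted p = 0.0621 to 0.195), or with no low-count filter (-0.38, adjusted p = 0.235). The count of 7 was 1 to 3 without any library other than the crossed PBS replicate 2. Neutrophil markers were at 10.2 to 12.3 CPM with cisplatin and 94.3 to 4119.6 CPM with PBS.

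SSM of the TDLN and the LN with PBS differed in 10 of 37 members, 4 higher and 6 lower in the TDLN, where 19.7% of all genes were called (7.63% higher, 12% lower), and in 12 and 11 without the crossed libraries, where 67.8% were called. The proliferation genes summed to 1018 to 1085 CPM in the TDLN and 583 to 921 CPM in the LN, and the mast cell markers to 4.87 to 8.6 CPM and 24.8 to 693 CPM, and their part was not tested. Brca2 was at 1.87, 0.811 and 0.245 CPM in the TDLN and at 7.06, 5.69 and 6.96 CPM in the LN (log2 fold change -2.74 ± 0.52, adjusted p = 0.00652). Ube2t was at 0.623, 1.72 and 1.47 CPM against 3.63, 10.4 and 4.98 CPM (log2 fold change -2.29 ± 0.51, adjusted p = 0.013) and Fancl at 12.1, 11.4 and 9.3 CPM against 18, 16.1 and 20.6 CPM (log2 fold change -0.74 ± 0.21, adjusted p = 0.0316), with Vrk2 at -1.19, adjusted p = 0.0232. These 3 were lower in the TDLN without overlap. Brca1 and Rad51c were lower as well, and Fan1 was at least 9.25-fold lower, adjusted p = 0.00404. Higher were Fancc (33.8, 35.9 and 32.9 CPM against 18, 15 and 14.7 CPM, log2 fold change 1.10 ± 0.25, adjusted p = 0.0128), Rad54l (34.8, 35 and 35.3 CPM against 22.5, 23.4 and 22.2 CPM, log2 fold change 0.62 ± 0.11, adjusted p = 0.00442), Rev3l (26.7, 22.7 and 26.3 CPM against 11.6, 5.82 and 16.4 CPM, log2 fold change 1.15 ± 0.31, adjusted p = 0.0255) and Xpc (60.6, 76.8 and 73 CPM against 43.2, 51.3 and 38.3 CPM, log2 fold change 0.66 ± 0.19, adjusted p = 0.0324). Fancc was not called without replicate 3 of the LN PBS group or replicate 2 of the TDLN PBS group (adjusted p = 0.0513 to 0.0531). Ube2t was not called without replicate 1 or 3 of the TDLN PBS group (adjusted p = 0.0512 to 0.0529). Fancl was not called without replicate 1 or 3 of the LN PBS group or replicate 1, 2 or 3 of the TDLN PBS group (adjusted p = 0.0702 to 0.131), or with no low-count filter (-0.72, adjusted p = 0.0924). Rev3l was not called without replicate 1 of the LN PBS group or replicate 1, 2 or 3 of the TDLN PBS group (adjusted p = 0.0606 to 0.0779), or with the 6 compared libraries alone (1.14, adjusted p = 0.0774). Xpc was not called without replicate 1 or 3 of the LN PBS group or replicate 2 or 3 of the TDLN PBS group (adjusted p = 0.0913 to 0.112), or with no low-count filter (0.69, adjusted p = 0.0528). The count of 10 was 6 without TDLN PBS replicate 2 or 3.

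With cisplatin 5 of 37 were higher and 1 lower in SSM of the TDLN, where 17.4% of all genes were called (8.79% higher, 8.65% lower), and 12 and 11 without the crossed libraries, where 61.9% were called. The mast cell markers summed to 1305 to 1996 CPM in the TDLN and 12.4 to 13.1 CPM in the LN, and the neutrophil markers to 509 to 5127 CPM and 10.2 to 12.3 CPM, and their part was not tested. Fancc was at 9.55, 6.59 and 4.39 CPM in the TDLN and at 17.6, 14.7 and 19.1 CPM in the LN, lower with cisplatin although it was higher with PBS (log2 fold change -1.32 ± 0.25, adjusted p = 0.00647). Ercc4, the nuclease that cuts beside the crosslink, was at 38, 34.7 and 50 CPM against 24.9, 21 and 23.5 CPM (log2 fold change 0.82 ± 0.18, adjusted p = 0.0119). Usp1 was at 49.3, 54.5 and 45.2 CPM against 34.7, 33.7 and 31.6 CPM (log2 fold change 0.58 ± 0.12, adjusted p = 0.0111) and Fancg at 29.1, 26.2 and 32.5 CPM against 19.1, 18.9 and 20.6 CPM (log2 fold change 0.58 ± 0.16, adjusted p = 0.0285). Fancf (log2 2.40) and Rad51b were the other two that were higher. Ercc4 was not called without replicate 2 of the LN cisplatin group (adjusted p = 0.0605). Usp1 was not called without replicate 3 of the LN cisplatin group (adjusted p = 0.0587), or with no low-count filter (0.58, adjusted p = 0.06). Fancg was not called without replicate 1, 2 or 3 of the LN cisplatin group or replicate 1 of the TDLN cisplatin group (adjusted p = 0.0724 to 0.107), or with no low-count filter (0.58, adjusted p = 0.104). The count of 6 was 2 or 3 without any 1 LN cisplatin library and 12 without the crossed TDLN cisplatin replicate 3, where 35.0% of all genes were called.

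MSM and SSM, averaged over the 4 conditions, differed in 24 of 37 members, 6 higher and 18 lower in MSM, where 30.2% of 19671 genes were called (7.72% higher, 22.5% lower), with a median of -0.32 against -0.14. For each of the 24 the MSM and SSM libraries overlapped, and the share of all genes with overlap was not computed. With all libraries kept, only a pair of the 4 conditions gave calls when tested alone. Within LN cisplatin 14 members were higher and 15 lower in MSM, where 49.7% of all genes were called, and within TDLN PBS 8 and 19, where 40.8% were called. Of the 20 called in both, 11 had opposite directions, among them Fancm (log2 2.13 in LN cisplatin, -2.38 in TDLN PBS) and Usp1 (0.77, -1.24), named after their values were seen. The share of all genes with opposite directions was not computed, so the reversal cannot be read as particular to the members. Within LN PBS and within TDLN cisplatin, whose groups each hold a crossed library, edgeR called 0 of 37 members and 0 of all genes, with 0 members at an unadjusted p under 0.05. Without the crossed libraries, an alternative chosen after the data were seen, 9 were higher and 14 lower in LN PBS, where 62.0% of all genes were called, and 13 and 10 in TDLN cisplatin, where 63.3% were called. In the average over the 4 conditions, recombination genes were lower in 7 of 11 cases and higher in none, core complex members higher in 3 and lower in 4 of 9. Brca1 was at -2.23, Palb2, which bridges Brca1 and Brca2, at -3.62, Fancb at -3.29 and Polh at -3.36 on the log2 scale. Higher in MSM were Fan1 (2.42), Ube2t (1.34), Fanci (0.38), Fancl (0.34), Fancg (0.31) and Ercc4 (0.31). The labels also differed in makeup in the pair of conditions with calls. For TDLN PBS, with MSM first, proliferation genes were at 467 to 493 against 1018 to 1085 CPM. Neutrophil markers were at 7188 to 7443 against 115 to 147 CPM and B cell markers at 25.7 to 30.4 against 742 to 753 CPM. For LN cisplatin, proliferation genes were at 996 to 1035 against 848 to 878 CPM. Macrophage markers there were at 327 to 356 against 7575 to 7612 CPM. The part of this makeup was not tested. Without the LN cisplatin groups 13 were called, 3 higher and 10 lower, where 14.6% of all genes were, and Brca1 (0.34), Brca2 (0.38), Fanca (0.083), Xpc (0.027) and Fancg (-0.057) changed sign. Without those groups and the crossed libraries, also chosen after the data were seen, it was 7 higher and 21 lower, where 61.1% of all genes were called, and without the crossed libraries alone 7 and 23, where 57.2% were, with Fancl no longer called (0.15, adjusted p = 0.0701).

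Palb2 and Rbbp8 went uncalled within both macrophage types, and Palb2 followed the crossed libraries. In SSM Palb2 was at 9.45, 0.812 and 7.79 CPM in LN PBS and at 18.4, 17.7 and 0.658 CPM in TDLN cisplatin, where the crossed replicates 2 and 3 were the low ones. In MSM it was at 0.248, 11 and 0.913 CPM and at 18.6, 0.12 and 0.127 CPM in the same groups, where the crossed replicates 2 and 1 were the high ones.

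Set side by side on the scale over 24 libraries, the genes at the centre of the pathway had the following lowest, median and highest levels. Fanci was at 8.68, 17.4 and 31.8 CPM in MSM, 8.52, 12.3 and 17.8 CPM in SSM, 5.62, 12.4 and 14.3 CPM in mDC and 8.51, 13.4 and 18.7 CPM in rDC. Ube2t was at 3.65, 7.04 and 18.8 CPM, 0.628, 3.91 and 10.4 CPM, 2.43, 3.68 and 6.04 CPM and 1.88, 5.03 and 5.97 CPM in the same order. Usp1 was at 18.6, 40.2 and 64.5 CPM, 32.3, 45.6 and 55.6 CPM, 17.4, 32.8 and 43.2 CPM and 20.8, 37 and 47.8 CPM. For these 3 genes the ranges of the 4 types overlapped, and none was called between mDC and rDC in the average over the 4 conditions. Tested within single conditions, Usp1 was called lower in mDC in 2 and Fanci in 1. There 54.9% to 72.4% of all genes were called. Fancd2 was at 0.119, 2.3 and 8.36 CPM in MSM and 0.27, 3.87 and 6.06 CPM in SSM, Brca1 at 0, 0.791 and 16.4 CPM and 0, 3.45 and 15.1 CPM. All mDC libraries were above all macrophage libraries for Fancd2. For Brca1 the order turned with the scaling: the lowest mDC library was at 16.9 CPM and the highest macrophage library at 16.4 CPM on this scale, but at 15.5 and 16.7 CPM on the scale within a cell type. The macrophage and dendritic tables were scaled separately, so no test was made across them. Brca2 was at 0.123, 3.69 and 8.38 CPM, 0.247, 6.79 and 9.62 CPM, 5.62, 9.13 and 13.4 CPM and 6.2, 8.75 and 12.9 CPM, Ercc1 at 5.83, 30.7 and 35.9 CPM, 21.2, 28.5 and 38.5 CPM, 19.1, 21.8 and 26.3 CPM and 14.7, 19.2 and 25.5 CPM. Xpc was at 16.8, 46.9 and 57.8 CPM in MSM and 28.9, 45.5 and 77.7 CPM in SSM. Polh was low throughout, at 0, 0.655 and 6.7 CPM, 0.766, 5.08 and 9.66 CPM, 2.82, 4.66 and 5.95 CPM and 3.27, 5.34 and 8.06 CPM.

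**Figure D5:**
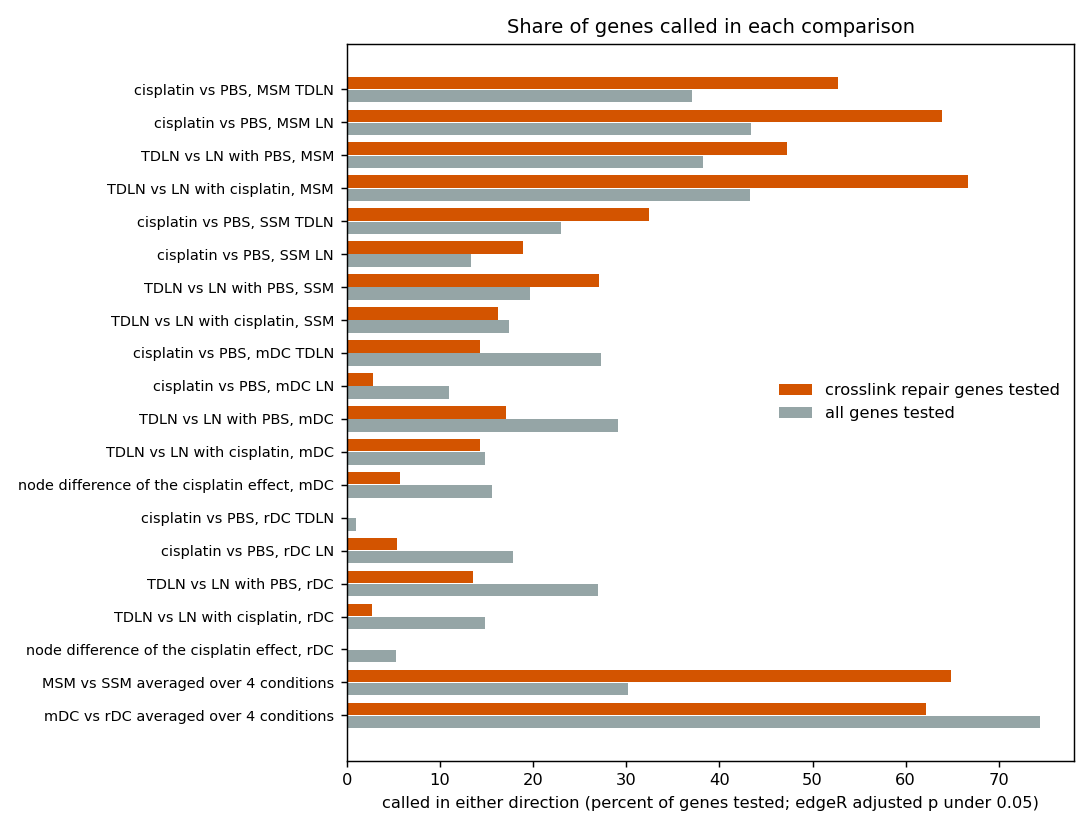
Percent of the members called beside the percent of all genes tested called, in each of the 20 comparisons. With all libraries kept, the members' share lies below that of all genes in each comparison of mDC, and above it in each of MSM.

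Of 57 further genes of crosslink and adduct repair, such as the Rpa subunits and Chek1, 52 were tested in mDC. In mDC of the TDLN 5 rose with cisplatin, Rad51ap1 (log2 1.85), Neil3 (1.54), Exo1 (1.09), Uhrf1 (1.05) and Faap100 (0.44), and 3 fell, Polk (-0.76), Rad54b (-0.64) and Cetn2 (-0.54). In mDC of the LN Polk (-0.54) and Topbp1 (-0.36) fell. Of all genes, 14.1% were called higher and 13.2% lower in the TDLN, and 6.15% and 4.82% in the LN. In rDC of the LN Dna2, a nuclease that resects DNA ends, fell by 0.82 on the log2 scale, and in rDC of the TDLN 0 of 55 were called with edgeR. Of all genes, 17.9% were called in rDC of the LN and 1.01% in rDC of the TDLN. In MSM 20 of 56 rose and 6 fell in the TDLN, and 16 rose and 17 fell in the LN. Of all genes, 25.6% were called higher and 11.5% lower in MSM of the TDLN, and 16.6% and 26.8% in the LN. In SSM 8 of 57 rose and 9 fell in the TDLN, and 8 rose and 3 fell in the LN. There 13.0% of all genes were called higher and 9.95% lower in the TDLN, and 5.85% and 7.42% in the LN.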

How the data were processed

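Reads were aligned with STAR to GRCm38 and quantified with RSEM 1.3.0, per the submitters' processing notes, which also name DESeq2 1.38.3. The expected counts used here were made by the authors and deposited as whole numbers. TPM of the dendritic cells, deposited by the authors, served to compare levels between genes. The macrophage TPM were deposited with decimals dropped and are treated as a score that was not used. Column names of the dendritic tables give tumor or WT for the node, taken as TDLN and, by elimination, LN. GENCODE vM21 gave a symbol to 99.4% of 55487 genes.

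Low genes were removed with filterByExpr, and libraries were scaled by TMM. The quasi-likelihood test of edgeR 4.0.16 (limma 3.58.1, R 4.3.3) was fitted in 1 model of 12 libraries per cell type, or of 24 libraries for MSM against SSM and mDC against rDC, on all genes, and was tested on simulated counts. Benjamini-Hochberg adjustment covered all genes, with a limit of 0.05. The standard error was taken as the fold change on the log2 scale divided by the root of its F statistic. Alternatives were a replicate block, DESeq2 1.42.0, RLE size factors, all genes with a count kept, a model of the 6 compared libraries only, each library left out, the 4 crossed libraries left out, and dendritic libraries above 5 M counts thinned to 3 M. Whether replicate numbers pair the samples is not known. Deviations of same-numbered libraries correlated above 0.1 in 3 or 4 of 18 pairs per cell type. That cannot decide it, since libraries of different numbers were not compared and the crossed libraries enter the macrophage values.

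The members, the further lists and the rule for naming were chosen with earlier results of these data known. By that rule, library values are given for up to 4 members per direction (6 between cell types) that were called, averaged at least 2 CPM and did not overlap between groups, by size of change. Library values or ranges of some other members are given beyond that rule, such as Atr and Atm for cisplatin in MSM of the TDLN. Members named with a fold change alone are the other called ones, and Fancd2, Fanci, Brca1, Brca2, Ube2t, Usp1, Ercc1, Xpc and Polh are described in each cell type. Only part of the called genes of the further repair list is named, those of dendritic cells. Promoter sequences are RefSeq's. Floors and intervals cover counting error or the spread between libraries, and PCR duplicates are not told apart.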

Additional observations from a re-analysis of the deposited data

Results flagged for a closer look

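In mDC the effect of cisplatin differed between nodes for 2 members, by the interaction term of edgeR's model with Benjamini-Hochberg adjustment. The difference TDLN minus LN was -0.98 ± 0.20 (SE) on the log2 scale for Fancl (adjusted p = 0.00177). Fancl was lower with cisplatin in 3 of 3 TDLN libraries and higher in 3 of 3 LN libraries, where the change was not called, and Vrk2, which shares exon bases with it on the opposite strand, differed by -0.68 (adjusted p = 0.00037). For Mus81 the difference was 0.84 ± 0.23 (adjusted p = 0.0157), with cisplatin libraries above all PBS libraries in the TDLN and overlapping them in the LN.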

How the results depend on the processing

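Of 288 alternative counts of called members 213 were within 1.5 times the main count. With no low-count filter they were 3 (main 7) for cisplatin in SSM of the LN, 9 (main 5) for cisplatin in mDC of the TDLN, 14 (main 6) and 3 (main 5) for TDLN against LN in mDC with PBS and with cisplatin, 5 (main 2) for the mDC node difference, 5 (main 2) for cisplatin in rDC of the LN, 8 (main 5) for the rDC nodes with PBS and 1 (main 0) for the rDC node difference. That setting shifted the median of all genes by -0.28, 0.35 and -0.32 in mDC (cisplatin in the TDLN, nodes with PBS, node difference) and by -0.30, -0.26 and 0.25 in rDC (cisplatin in the LN, nodes with PBS, node difference). DESeq2 shifted it by -0.10 for cisplatin in rDC of the LN, and the other 279 settings stayed within 0.0915. Thinning gave 3 (main 5) for cisplatin in mDC of the TDLN, 1 (main 2) for rDC of the LN, 2 (main 5) for the rDC nodes with PBS and 0 (main 1) with cisplatin. DESeq2 gave 1, 3 and 0 for the last 3, RLE size factors 0 for the rDC nodes with cisplatin, and the 6 compared libraries alone 8 and 0 for the rDC nodes with PBS and with cisplatin. Without the 4 crossed libraries SSM had 28 (main 12) and 12 (main 7) calls for cisplatin in the TDLN and the LN and 23 (main 10) and 23 (main 6) for the nodes with PBS and with cisplatin. Without the LN cisplatin groups MSM against SSM had 13 (main 24). MSM against SSM tested within LN PBS and within TDLN cisplatin had 23 each without the crossed libraries (main 0 each).

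With the replicate block, whose numbers are not known to pair the libraries, counts were 3 (main 7) for cisplatin in SSM of the LN, 2 (main 5) for the rDC nodes with PBS and 0 (main 1) for the rDC nodes with cisplatin, and within 1.5 times the main count in the other 17 comparisons.

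Leaving out each library in turn gave for cisplatin 17 to 21 calls in MSM of the TDLN, 13 to 25 in MSM of the LN, 9 to 19 in SSM of the TDLN, 1 to 6 in SSM of the LN, 2 to 5 in mDC of the TDLN, 0 to 2 in mDC of the LN, 0 to 0 in rDC of the TDLN and 1 to 1 in rDC of the LN. For the nodes with PBS the ranges were 13 to 23 (MSM), 6 to 13 (SSM), 3 to 8 (mDC) and 1 to 3 (rDC), with cisplatin 14 to 24, 2 to 12, 2 to 4 and 0 to 4. They were 1 to 3 and 0 to 1 for the node differences of mDC and rDC, 21 to 24 for mDC against rDC and 21 to 26 for MSM against SSM.

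Of 3312 alternative values of single members 2911 kept direction and call, 386 lost the call, 1 gained it and 14 changed sign. The signs that changed were those of Xpc in mDC (-0.12 for cisplatin in the TDLN with no filter, 0.0152 in the LN without LN cisplatin replicate 1, with a range of -0.106 to 0.0152 over the libraries left out), Xpc in rDC of the LN without LN cisplatin replicate 2 (0.0333, with a range of -0.198 to 0.0333) and Brca1 there with no filter (-0.10). In MSM against SSM they were Fanca (0.083), Fancg (-0.057), Brca1 (0.34), Brca2 (0.38) and Xpc (0.027) without the LN cisplatin groups, and Fanca (0.43), Mus81 (0.025), Brca1 (0.74), Brca2 (0.40) and Xpc (0.25) without those and the crossed libraries. The cause was not tested. Depth limits the 18 shallow dendritic libraries and members of a few CPM, and libraries of a group may be technical repeats.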

Other observations

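The genes whose log2 CPM followed Fancd2 most closely over the 24 dendritic libraries, among 11481 ranked, were Map4k4 (Pearson r = 0.966), Ivd (0.962), Hmgcs1 (0.959), Slc25a35 (0.957) and Sc5d (0.955), over libraries that share the split into mDC and rDC and differ in depth. Over the 24 macrophage libraries, among 10859 genes, they were Lad1 (0.943), Pigm (0.931), Ptar1 (0.931), Aqr (0.929) and Zfp386 (0.926), where the crossed libraries enter both types. Low genes were left out of both rankings by a limit on mean log2 CPM. Fancd2 itself was below that limit in the macrophage libraries, at a mean of 1.21, so there the correlations are with a low gene.

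Of the further repair genes, 21 were higher and 21 lower of 54 in mDC than in rDC, where 74.4% of all genes were called (35.6% higher, 38.9% lower). Dclre1a, a nuclease of crosslink repair, had a log2 fold change of 2.26, Rad50, part of the complex that binds broken ends, 1.7, Polk, a translesion polymerase, 1.36 and Rad18, the ligase that calls translesion polymerases to a stalled fork, 1.25. On the other side stood Rad51ap1 (-1.26), Rmi2 (-1.23) and Dna2 (-1.14). In mDC with PBS TDLN against LN had 11 of 52 higher and 2 lower, and rDC 2 of 55 higher and 7 lower. Of all genes, 14.8% were called higher and 14.3% lower in mDC, and 14.9% and 12.1% in rDC. For Rad51ap1 the cisplatin effect in mDC differed between nodes by 2.14 on the log2 scale, and for Dna2 in rDC by 1.02.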
